A study of Mus musculus with 6 samples.

Results

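The genes described here were 10 members of the matrix metalloproteinase (MMP) family, Mmp2, Mmp3, Mmp7, Mmp9, Mmp10, Mmp11, Mmp12, Mmp13, Mmp14 and Mmp28. They were picked by name from the family, at a time when signals of the same TGF-β1 comparison were already known, and they are 10 of the 22910 genes that the array reached through a RefSeq accession. Most of the names denote enzymes released by cells, whereas Mmp14 encodes an enzyme that stays anchored in the membrane, so the family name is used here in place of "secreted". Mouse airway epithelial organoids (MAOs) of strain C57BL/6, made from lung airway epithelial cells, were dissociated and grown as a flat layer on type I collagen (2D-MAOs). From day 3 both groups were kept in medium lacking noggin, an antagonist of bone morphogenetic proteins, and A83-01, an inhibitor of the TGF-β type I receptor. TGF-β1, a secreted growth factor, was added to 3 cultures and not to the 3 control cultures, and all were collected on day 7. No concentration is given for the cultures used for arrays. Each culture gave 1 array.

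MMPs are zinc-dependent proteases made as inactive precursors, and they cleave collagens, laminins, fibronectin, elastin and other proteins outside the cell. Their activity is set by transcription, by removal of the propeptide through furin-type or plasmin-type proteases, and by tissue inhibitors of metalloproteinases (TIMPs). In the lung they are known from wound repair of the airway epithelium, from fibrosis and from tumour invasion, and many of them are also made by fibroblasts and leukocytes.

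All values are quantile-normalised log2 signals of 1 probe per gene unless stated otherwise, and differences are TGF-β1 minus control on that scale. Signals of different genes were not compared. A mark by the scanner software says whether a spot was well above background, and a gene was tested when its probe carried that mark on at least 3 of the 6 arrays. The array of TGF-β1 replicate 3 stood apart: its Euclidean distance over all genes tested was 61.1 and 62.3 to the other TGF-β1 arrays and 54.4 to 60.9 to the control arrays. It lay with control replicate 3 in slide row 2, and the other 4 arrays in slide row 1, so results are also given without it and within each row. Of 14 airway epithelial markers, 13 were well above background on all 6 arrays, with Muc5b on none. Their summed linear signal was 317000 to 347000 in controls and 316000 to 476000 after TGF-β1. Foxj1 alone of them passed a limma adjusted p under 0.05 (difference 1.47, limma adjusted p = 0.00238). Of 12 leukocyte markers 7 were well above background on none, Ptprc, Adgre1, Itgax, Lyz2 and Tyrobp among them, and of 12 fibroblast markers 6 were, including Col3a1, Lum, Pdgfrb and Postn. In a bulk culture, more cells of one kind and more RNA per cell cannot be told apart.

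Of the members, 5 were well above background on all 6 arrays, namely Mmp10, Mmp11, Mmp13, Mmp14 and Mmp28, and Mmp12 was on 5. These 6 were tested with limma, together with 14345 genes in all. The members Mmp3 and Mmp7 reached the mark on 1 and 2 arrays, and Mmp2 and Mmp9 on none. Of the 6 tested, 3 passed a limma adjusted p under 0.05, all with higher signals after TGF-β1, beside 2.04% of all genes in either direction, 1.63% in that direction and 1.38% with a change of at least 2-fold as well. In 5 of the 6 the control and TGF-β1 arrays did not overlap, beside 26.4% of all genes. The members had been listed with values of this comparison known, so these counts describe the members and nothing is read from the contrast with all genes; for the same reason the differences below carry a standard error (SE) and no p.

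The collagenase Mmp13, the stromelysin Mmp10 and the macrophage elastase Mmp12 had much higher signals in TGF-β1-treated 2D-MAOs, by 25.6-fold, 22.2-fold and 14.1-fold. Their control signals were near background, and that of Mmp12 was not well above it in control replicate 1, so these fold changes are uncertain. Mmp13, which cleaves fibrillar collagen, had signals of 4.46, 4.54 and 4.99 in control replicates 1, 2 and 3 and of 9.74, 8.61 and 9.68 in TGF-β1 replicates 1, 2 and 3. Every treated array lay at least 3.62 above every control array, and the difference was 4.68 (SE 0.32). Before normalisation the same spots had a background-subtracted brightness of 21.2, 18.8 and 31.9 in controls and of 949, 377 and 821 after TGF-β1. Mmp10, which cleaves several non-collagen matrix proteins and can activate other MMPs, had signals of 4.72, 5.69 and 4.87 in controls and of 9.67, 9.30 and 9.74 after TGF-β1. The highest of these was in TGF-β1 replicate 3, and the gap between the groups was 3.61 for a difference of 4.47 (SE 0.27). The brightness of the Mmp10 spot was 25.4, 43.2 and 29.5 in controls and 908, 594 and 851 after TGF-β1.

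**Figure D1:**
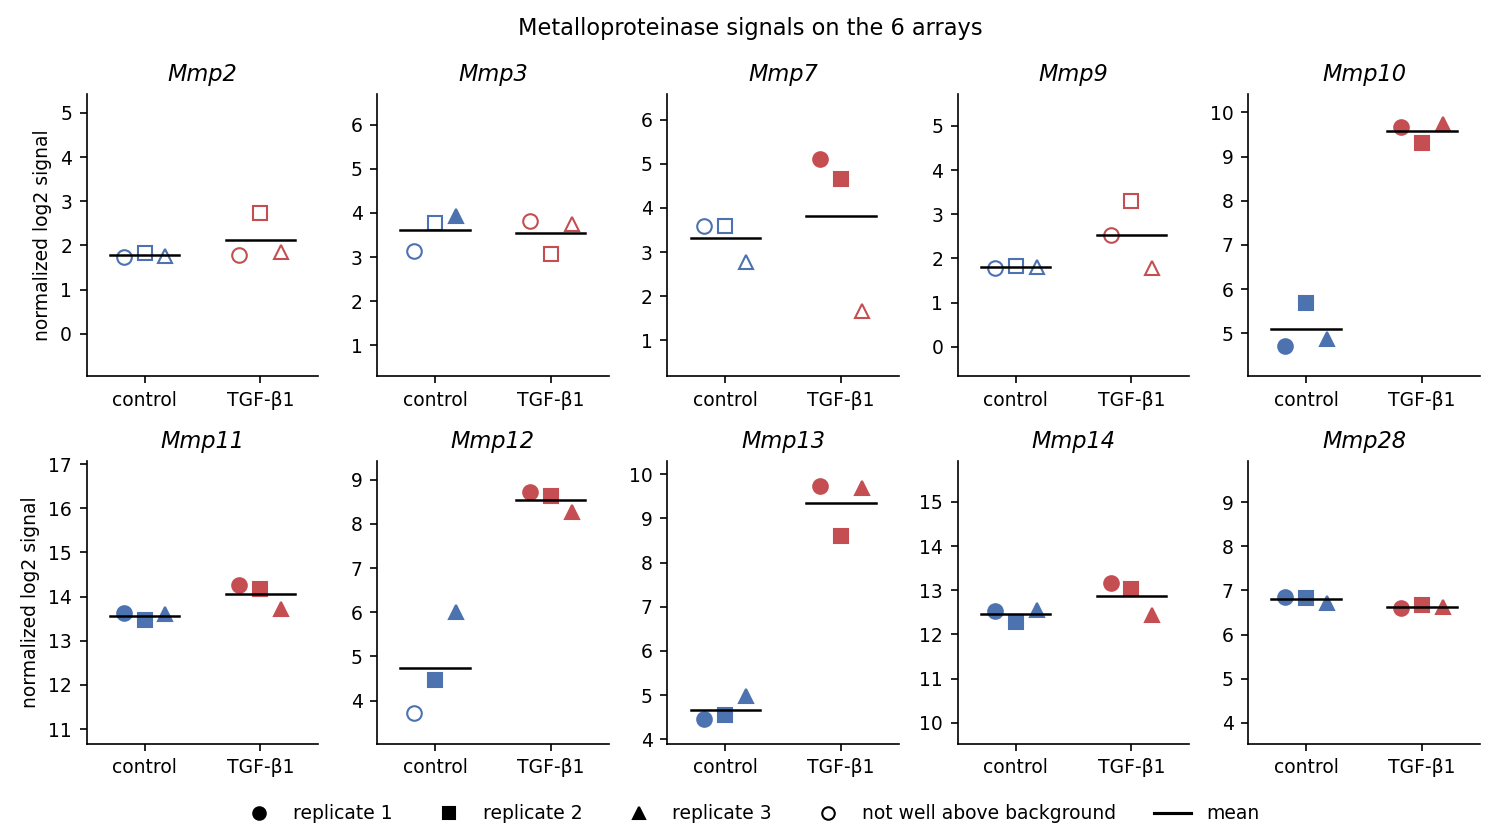
Normalised log2 signal of the 10 genes on each array, 1 panel per gene, with the 3 control and the 3 TGF-β1 arrays as points by replicate and their mean as a line; open points were not well above background, and all panels span the same number of log2 units around their own centre. Mmp10, Mmp12 and Mmp13 stand at least 2.27 log2 units higher on each TGF-β1 array than on any control array, whereas Mmp2 and Mmp9 show open points only.

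Mmp12, an elastase best known from macrophages, was read by 3 probes. The probe used in the test had signals of 3.72, 4.47 and 6.01 in controls, where it was well above background in replicates 2 and 3 only, and of 8.73, 8.64 and 8.28 after TGF-β1. The difference was 3.82 (SE 0.54), with the largest spread of the 3 strongly raised genes among the controls. The other probes exceeded background clearly on the 3 TGF-β1 arrays but on none of the controls, so their fold change is given as a minimum. One had 6.88, 6.21 and 6.33 after TGF-β1 and was at least 5.64-fold higher, and the other had 6.78, 6.22 and 6.17 and was at least 5.33-fold higher. These bounds were taken against the dimmest signal that counted as well above background on each control array, 4.12, 4.19 and 3.62. The measured control means of these probes were 2.06 and 2.49. All 3 probes had higher signals on every treated array than on any control array. Of the 12 leukocyte markers, 5 were well above background on all 6 arrays and none passed with limma. Their summed linear signal was 17500 to 20900 in controls and 19400 to 20200 after TGF-β1, and bright markers such as Cd14 and Csf1r weigh most in it. Cd68, a macrophage marker picked out after its values were seen, had 10.89, 11.35 and 10.39 in controls and 11.59, 12.19 and 11.57 after TGF-β1. Its groups did not overlap (difference 0.90, limma adjusted p = 0.147). Of the other leukocyte markers measured on all 6 arrays, Itgam had a difference of 0.43, Csf1r of 0.01, Cd3e of -0.24 and Cd14 of -0.40. The groups of Itgam and Cd14 did not overlap either, beside 26.4% of all genes. The part of leukocytes in the Mmp12 signal was not tested.

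Mmp11 and Mmp14 were bright in both groups and differed little. Mmp11, stromelysin 3, is known for being activated inside the cell by furin. Its signals were 13.62, 13.48 and 13.60 in controls and 14.26, 14.17 and 13.73 after TGF-β1, a difference of 0.49 (SE 0.16). Mmp14, the membrane-anchored collagenase that activates the Mmp2 precursor, had signals of 12.52, 12.29 and 12.56 in controls and of 13.16, 13.02 and 12.44 after TGF-β1, a difference of 0.42 (SE 0.20). In both genes TGF-β1 replicates 1 and 2 were above all controls, but replicate 3 lay only 0.11 above the highest control for Mmp11 and within the controls for Mmp14. Without that array the differences were 0.65 and 0.63, and both genes passed the threshold applied to all genes. In that setting 2202 of all 14345 genes tested passed. With 75th percentile scaling in addition, a setting chosen after seeing the data, they were 0.39 and 0.42 and neither gene passed. Mmp28, epilysin, a member found in many epithelia, was the one tested gene with lower signals. It had 6.86, 6.82 and 6.72 in controls and 6.60, 6.67 and 6.62 after TGF-β1, a difference of -0.17 (SE 0.10), which became -0.03 under scaling to the 75th percentile. A second Mmp28 probe, for another transcript, was near background throughout.

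The gelatinases and the small matrilysin were at or near background. Mmp2, the type A gelatinase, had signals of 1.74, 1.83 and 1.77 in controls and 1.78, 2.74 and 1.85 after TGF-β1, and none of these was well above background. The same held for Mmp9, the type B gelatinase, one probe of which had 1.78, 1.82 and 1.81 in controls and 2.54, 3.29 and 1.78 after TGF-β1. No fold change is given for them, because neither group had a measured level. Mmp3, a stromelysin closely related to Mmp10, had 3.13, 3.77 and 3.93 in controls and 3.81, 3.08 and 3.74 after TGF-β1, and was well above background in control replicate 3 alone. The groups overlapped. Mmp7, matrilysin, is an epithelial member that lacks the hemopexin domain of most others. It had 3.59, 3.60 and 2.77 in controls and 5.11, 4.66 and 1.67 after TGF-β1, and only TGF-β1 replicates 1 and 2 were well above background, so that the lowest value of all belonged to TGF-β1 replicate 3. No bound above 1-fold could be given for Mmp3 or Mmp7.

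The size of the large differences depended on the treatment of background more than on any single array. When single arrays were omitted, the difference ranged from 4.48 to 5.05 for Mmp13, from 4.29 to 4.77 for Mmp10 and from 3.31 to 4.46 for Mmp12. Normexp background correction, which models the background and adds an offset of 50 to every signal, lowered them to 2.92, 2.98 and 2.16. Within slide row 2, where 1 array stood against 1, the difference was 4.69 for Mmp13, 4.86 for Mmp10 and 2.27 for Mmp12, and within row 1 it was 4.67, 4.28 and 4.59. For Mmp11 it was 0.66 in row 1 and 0.13 in row 2, and for Mmp14 it was 0.68 and -0.12. The threshold over all genes was passed by Mmp10 and Mmp13 without each array in turn, and by Mmp12 only without control replicate 3 or TGF-β1 replicate 3. The members were listed with this comparison known, so these passes describe them and are not a test of them.

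**Figure D2:**
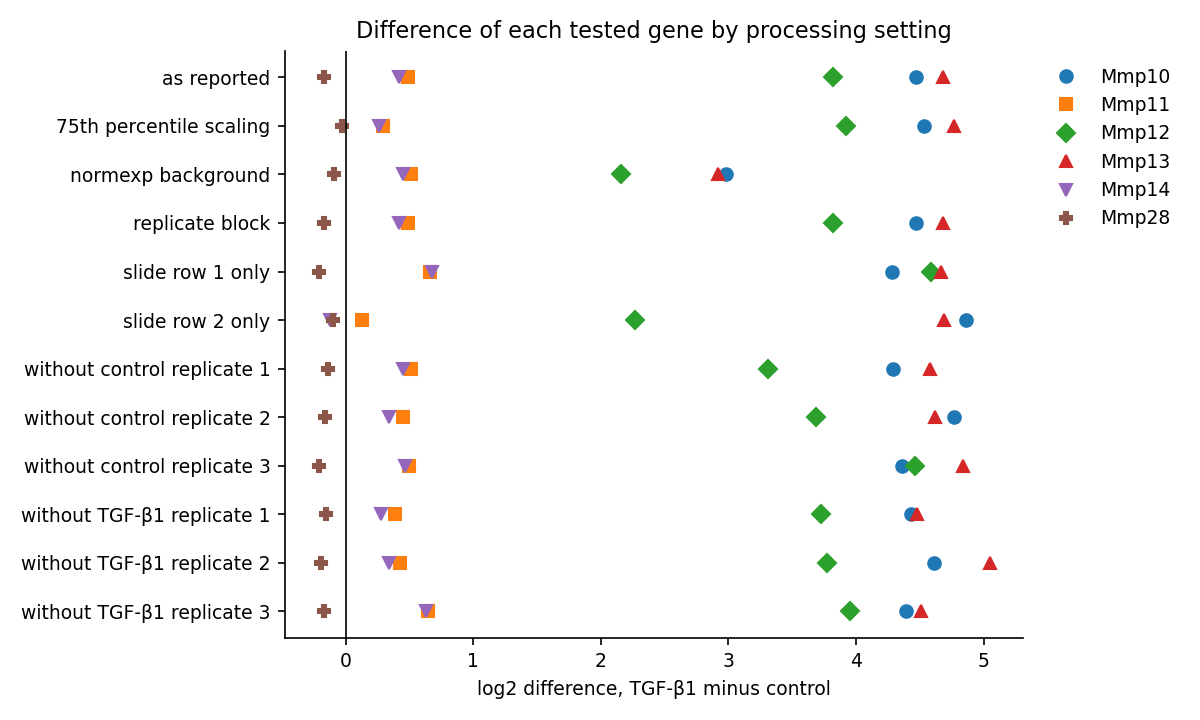
Log2 difference (TGF-β1 minus control, horizontal axis) of the 6 tested genes under each processing setting (vertical axis), 1 symbol per gene. Mmp10, Mmp12 and Mmp13 stay to the right of 2 log2 units in every setting that included them, with the lowest values under normexp background (2.98, 2.16 and 2.92), and Mmp28 lies close to 0.

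The 3 strongly raised genes lie in the same cluster on mouse chromosome 9, where 10 MMP genes stand in a row with no other protein-coding gene between them in the GRCm38.p6 annotation. In their order these are Mmp13, Mmp12, Mmp1b, Mmp3, Mmp1a, Mmp10, Mmp8, Mmp27, Mmp20 and Mmp7. The higher signals did not extend along the row. Mmp1a, Mmp1b, Mmp8 and Mmp20 were not well above background on any array, Mmp3 and Mmp7 had the values given above, and no probe carried a RefSeq accession of Mmp27. Mmp1b, Mmp3 and Mmp1a lie between Mmp12 and Mmp10 and were close to background in both groups. Of the 5 members elsewhere in the genome, Mmp2 and Mmp9 had no measured level, and the differences of Mmp11, Mmp14 and Mmp28 were 0.49, 0.42 and -0.17.

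**Figure D3:**
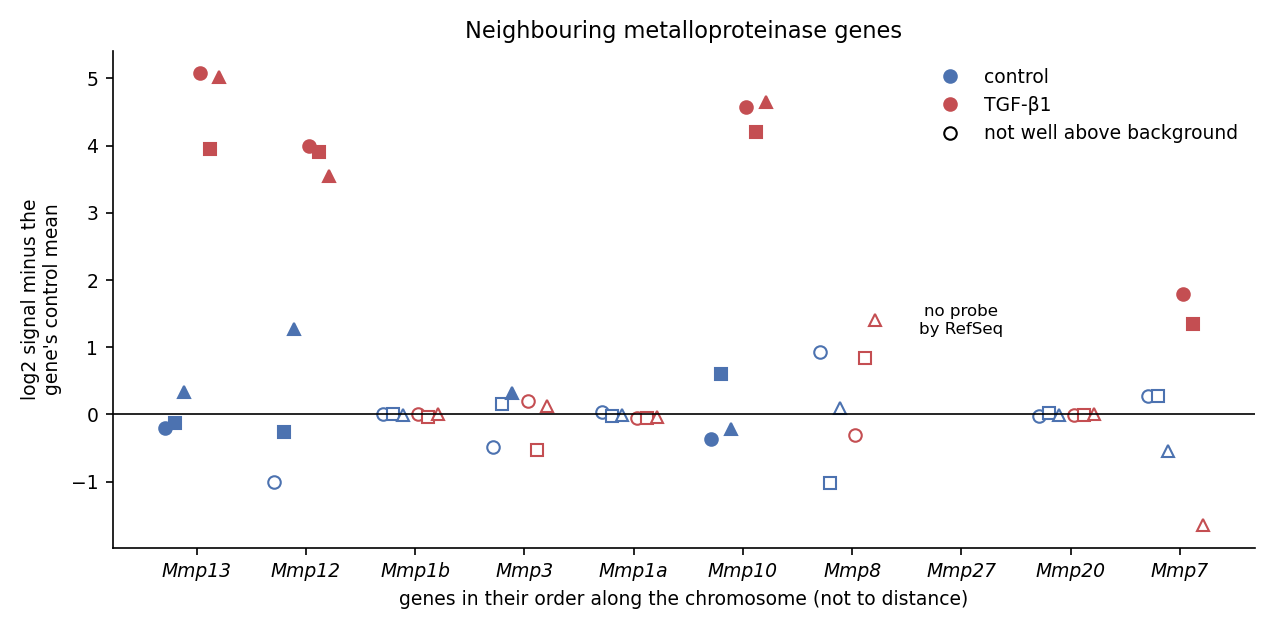
Log2 signal of each array minus the mean of the gene's 3 control arrays (vertical axis) for the MMP genes of chromosome 9 in their order (horizontal axis, not to distance). TGF-β1 arrays are red, control arrays blue, and open points were not well above background; filled red points stand high at Mmp13, Mmp12 and Mmp10, with points near 0 at Mmp1b, Mmp3 and Mmp1a between them, all open except that of Mmp3 in control replicate 3.

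Promoters of genes of this row are shown because AP-1, the factor formed by Fos and Jun proteins, is the classical regulator of several MMP genes. The sequences are those of RefSeq, build GRCm38.p6, plus strand, the 120 bases before an annotated transcription start, with the AP-1 motif TGANTCA (either strand) and the motif TATAAA (sense strand) in capitals. They are given for the 3 raised genes and for the related Mmp3 and Mmp7, which reached the mark on 1 and 2 arrays. For Mmp12 and Mmp7, which have more than 1 annotated start, the one with an AP-1 match is shown.
Mmp13, chr9:7272394-7272513: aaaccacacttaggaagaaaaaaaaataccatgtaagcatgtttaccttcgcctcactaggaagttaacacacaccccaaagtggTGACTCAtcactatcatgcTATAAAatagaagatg
Mmp12, chr9:7347254-7347373: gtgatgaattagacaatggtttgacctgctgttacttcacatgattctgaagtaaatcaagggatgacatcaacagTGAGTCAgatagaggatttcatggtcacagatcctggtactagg
Mmp10, chr9:7502222-7502341: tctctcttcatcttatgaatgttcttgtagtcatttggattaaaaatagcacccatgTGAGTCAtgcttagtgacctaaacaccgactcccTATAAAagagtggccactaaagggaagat
Mmp3, chr9:7445702-7445821: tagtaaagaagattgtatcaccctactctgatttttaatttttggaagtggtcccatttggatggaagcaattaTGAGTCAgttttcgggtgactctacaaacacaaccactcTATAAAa
Mmp7, chr9:7691970-7692089: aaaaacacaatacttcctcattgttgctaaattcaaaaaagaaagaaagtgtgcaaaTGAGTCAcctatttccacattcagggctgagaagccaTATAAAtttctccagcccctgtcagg

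The AP-1 match began 35 bases before the start in Mmp13, 44 in Mmp12, 63 in Mmp10, 46 in Mmp3 and 63 in Mmp7. Within 250 bases before a start, 8 of the 10 genes of the row held a match, against none of the 8 MMP genes elsewhere that had a promoter in the table, which included Mmp11, Mmp14 and Mmp28. A gene counted when any of its starts had a match, and the other windows of Mmp12 and Mmp7 held none. Of all 32851 promoter windows of that length, 6.75% held one. Such shares, here and below, count windows and not genes. The match was thus present at a start of each of the 3 raised genes, but not at the upstream start of Mmp12. It was also present in Mmp1a, Mmp1b and Mmp20, which were well above background on no array. Mmp3, which was on 1, and Mmp7, which was on 2, held it too. The motif TATAAA was found in 7 of the 10 genes of the row, against 7.59% of all windows. The pentamer CAGAC, the core of the sites bound by Smad proteins, was found in 5 of the 10, against 42.2% of all windows, and among the 3 raised genes only in Mmp10. These matches describe letters in a window and not binding.

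Over the 6 arrays, the genes whose signals ran most like that of Mmp10 were Bok, Flt1 and Sfn, with Pearson correlations of 0.996, 0.995 and 0.994. Bok, a relative of the Bcl-2 proteins, had 8.30, 8.76 and 7.99 in controls and 11.26, 10.87 and 11.20 after TGF-β1. The genes most like Mmp13 were Ndrg4, Cntrl and Ly6d, with correlations of 0.999, 0.997 and 0.996. Ndrg4 had 8.55, 8.80 and 8.91 in controls and 12.11, 11.31 and 12.10 after TGF-β1. In Ndrg4, Cntrl and Ly6d, as in Mmp13, TGF-β1 replicate 2 was the lowest treated array. They were chosen by correlation over these same arrays, so this likeness is no separate result. The difference of Cntrl was only 0.38. The correlations were taken over 13508 genes well above background on all 6 arrays, MMP genes left out, and all genes share the split of these arrays into 2 groups.

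A set of 8 gene lists around the family were examined, with 88 of their 103 genes tested. Of these, 9 passed a limma adjusted p under 0.05, each with a higher signal after TGF-β1. Beside this, 2.04% of all genes passed in either direction and 1.63% with higher signals. The lists were chosen with earlier results of these data known, so all list counts are descriptions only. Among 13 other MMP genes, 5 were tested, namely Mmp15, Mmp16, Mmp17, Mmp19 and Mmp23, with a median difference of 0.26 beside -0.03 over all genes. Without control replicate 2 their median was 0.07. None of the 5 passed with limma or with an adjusted plain test per gene, and 1 had an unadjusted limma p under 0.05. Mmp17 had a difference of 0.45 (limma adjusted p = 0.143), Mmp16 of 0.26 (limma adjusted p = 0.471) and Mmp23 of 0.32 (limma adjusted p = 0.27). Without TGF-β1 replicate 3, Mmp23 passed with 0.46 (limma adjusted p = 0.0438). Mmp15, a membrane-anchored relative of Mmp14, had 13.09, 12.97 and 12.98 in controls and 13.38, 13.51 and 12.36 after TGF-β1.

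The inhibitors of MMPs were represented by Timp1, Timp2, Timp3 and Reck, while Timp4 and A2m missed the filter. None of the 4 passed with limma or with an adjusted plain test per gene, and 2 had an unadjusted limma p under 0.05. The median difference was 0.49. Timp1, a secreted inhibitor of most MMPs, had signals of 8.95, 9.42 and 9.57 in controls and 11.79, 11.84 and 10.42 after TGF-β1. All treated arrays were above all controls, and the difference was 2.04 (SE 0.40, limma adjusted p = 0.0597). Without TGF-β1 replicate 3 it was 2.50 (limma adjusted p = 0.00341), and within slide rows 1 and 2 it was 2.63 and 0.85. With normexp background it was 1.93 (limma adjusted p = 0.0283). Reck, a membrane-bound inhibitor, had a difference of 0.81 (limma adjusted p = 0.203). Timp2 and Timp3 had differences of 0.13 and 0.16 (limma adjusted p of 0.534 and 0.73), and both turned sign under scaling to the 75th percentile, to -0.01 and -0.11.

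Of 16 tested genes of MMP-activating proteases and their regulators, 1 passed and 7 had an unadjusted limma p under 0.05, beside 22.2% of all genes tested, with a median difference of 0.33. This was Furin, which cleaves the propeptides of Mmp11, Mmp14 and Mmp28. Furin rose from 13.52 ± 0.24 to 14.34 ± 0.08 (SD, n = 3 each), a difference of 0.82 (limma adjusted p = 0.0475). Plau, the gene of urokinase, had signals of 10.63, 11.50 and 11.24 in controls and 12.65, 12.92 and 11.09 after TGF-β1, with overlapping groups (difference 1.09, limma adjusted p = 0.245). Serpine2, an inhibitor of urokinase and thrombin, had a difference of 1.29 (limma adjusted p = 0.273), of 2.25 in slide row 1 and -0.62 in row 2. Without TGF-β1 replicate 3 the differences of Plau and Serpine2 were 1.66 and 2.02 (limma adjusted p of 0.0177 and 0.0195).

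Among 11 factors of the AP-1 group, 1 passed, with a median difference of 0.13. It was Batf3, a partner of Jun proteins, with 4.74 ± 0.19 in controls and 5.48 ± 0.07 after TGF-β1 (SD, n = 3 each; difference 0.74, limma adjusted p = 0.0438). Under normexp background Batf3 had 0.18 (limma adjusted p = 0.258), and with slide row as a block it did not pass either (limma adjusted p = 0.0509). Junb had a difference of 0.55 (limma adjusted p = 0.0636), Fosb of 0.70 (limma adjusted p = 0.138) and Jun of 0.63 (limma adjusted p = 0.162). Among 14 Ets and Runx factors, whose sites occur in MMP promoters, 1 passed, with a median difference of 0.06, or -0.08 under scaling to the 75th percentile. Etv4, an Ets factor of the PEA3 group, rose from 8.52 ± 0.15 to 9.60 ± 0.06 (SD, n = 3 each), a difference of 1.08 (limma adjusted p = 0.0107). Its relative Etv5 had 0.95 (limma adjusted p = 0.0544), Elf3, an epithelial Ets factor, had -0.94 (limma adjusted p = 0.152) and Runx3 had -0.65 (limma adjusted p = 0.104).

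Substrates of the enzymes held 4 of the 9 genes that passed. Of 10 tested genes of the interstitial matrix 3 passed, with a median difference of 1.5, or 0.59 with normexp background and 1 without a filter. None of the 3 passed without the filter. Col1a1 and Col1a2, the chains of type I collagen, which Mmp13 cleaves, exceeded background clearly on each TGF-β1 array but on none of the controls. Col1a1 was at least 2.59-fold higher (limma adjusted p = 0.0091) and Col1a2 at least 2.38-fold higher (limma adjusted p = 0.0162). These minima hold for the quantile-normalised signals. Both genes entered the test only through the TGF-β1 arrays, and without the filter neither passed (limma adjusted p of 0.0606 and 0.0805). With normexp background the differences were 0.60 (limma adjusted p = 0.0409) and 0.43 (limma adjusted p = 0.0849), so that Col1a2 no longer passed. Fn1, fibronectin, had a difference of 2.22 (limma adjusted p = 0.0279, or 0.116 without the filter). Both type I collagen genes also belong to the fibroblast markers, of which they were the only 2 to pass. The summed linear signal of the fibroblast markers was 91400 to 98000 in controls and 91500 to 109000 after TGF-β1, and the bright Pdpn makes up most of it. Of the others, picked out after their values were seen, Thy1 had 4.14, 4.67 and 4.23 in controls and 8.19, 7.65 and 4.6 after TGF-β1 (difference 2.47, limma adjusted p = 0.176). Dcn had 8.98, 8.81 and 8.96 in controls and 11.10, 9.68 and 8.98 after TGF-β1 (difference 1.00, limma adjusted p = 0.273). The other fibroblast markers measured on all 6 arrays, Pdgfra and Pdpn, had differences of 0.21 and 0.09 (limma adjusted p of 0.484 and 0.623). The part of fibroblasts in the MMP signals was not tested. Tnc, tenascin C, had 6.97, 6.67 and 7.23 in controls and 10.63, 9.68 and 7.82 after TGF-β1 (difference 2.42, limma adjusted p = 0.118). Col2a1 had a difference of 1.59 (limma adjusted p = 0.0934) and Col5a2 of 1.40 (limma adjusted p = 0.16). Of 16 tested genes of the basement membrane 1 passed and 11 had an unadjusted p under 0.05, with a median difference of 0.80. Col7a1, the anchoring fibril collagen, rose from 12.01 ± 0.40 to 14.59 ± 0.95 (SD, n = 3 each), a difference of 2.59 (limma adjusted p = 0.0484). With slide row as a block it did not pass (limma adjusted p = 0.0501). Col17a1 had a difference of 2.13 (limma adjusted p = 0.167), of 3.32 in slide row 1 and -0.25 in row 2, and Hspg2, perlecan, of 1.80 (limma adjusted p = 0.118). Col4a1, a chain of type IV collagen, reached the mark in none of the controls and entered the test only through the TGF-β1 arrays. It was at least 2.17-fold higher on the quantile-normalised scale (limma adjusted p = 0.111), while normexp background gave a difference of 0.39.

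Of 12 surface partners and binding proteins of MMPs 2 passed, with a median difference of 0.66. Lcn2, the lipocalin that forms a complex with Mmp9, rose from 13.98 ± 0.22 to 15.39 ± 0.33 (SD, n = 3 each), by 1.41 (limma adjusted p = 0.0221), although Mmp9 itself was near background. Lrp1, an endocytic receptor that clears several MMPs, rose from 9.77 ± 0.36 to 11.31 ± 0.36 (SD, n = 3 each), by 1.54 (limma adjusted p = 0.0315). Thbs1, thrombospondin 1, had a difference of 1.29 (limma adjusted p = 0.106) and Itga2, a collagen receptor subunit, of 0.93 (limma adjusted p = 0.13). Cd44, a docking protein for MMPs on the cell surface, had a difference of 0.92 (limma adjusted p = 0.218). Within slide row 2 the 7 genes that passed and were measured in controls had differences of 0.47 (Furin) to 1.39 (Lcn2), in the direction of row 1. None of the 9 passed without each array in turn. Col1a1 failed only without TGF-β1 replicate 2 (limma adjusted p = 0.0515), Etv4 without control replicate 1 or TGF-β1 replicate 1 or 2, and Col1a2 without control replicate 1 or 2 or TGF-β1 replicate 2. Furin, Batf3, Fn1 and Lrp1 failed without any one of control replicates 1 and 2 and TGF-β1 replicates 1 and 2, and Col7a1 and Lcn2 without any array but TGF-β1 replicate 3. Without TGF-β1 replicate 3 all 9 passed, and 40 of the list genes did so in all, beside 2202 of all 14345 genes tested.

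**Figure D4:**
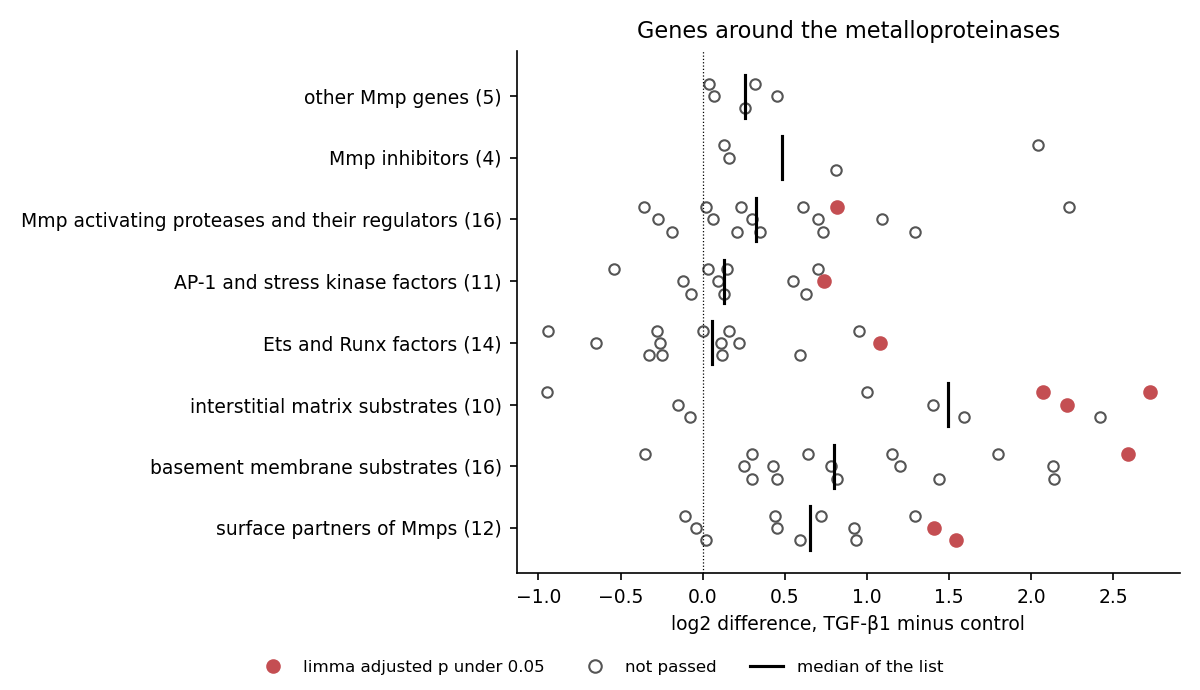
Log2 difference (TGF-β1 minus control, horizontal axis) of each tested gene of the 8 lists (vertical axis, with the number tested), with the median of the list as a line; red points passed a limma adjusted p under 0.05. The 9 red points all lie right of 0, and 3 of them belong to the interstitial matrix.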

How the data were processed

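RNA of 3 control and 3 TGF-β1-treated 2D-MAO cultures was measured with 1 Cy3-labelled array each. The authors deposited, per spot, an intensity on a linear scale from Agilent Feature Extraction (11.0.1.1), background-subtracted and detrended within the array but not normalised between arrays, with the brightness of spot and local background and other deposited marks for each spot. Here, control spots and spots marked as outliers were left out, spots of 1 probe were averaged, and log2 intensities were quantile-normalised. Probes were named through RefSeq accessions (32991 of 56599 probes matched), and a gene was represented by its probe with the highest mean among those well above background on at least 3 arrays. Genes were tested with limma 3.58.1 in R 4.3.3 and Benjamini-Hochberg adjustment over 14345 genes, and the code was tested on simulated data. The number of arrays limits the precision. The labels number the samples as replicates, and the methods call them biological.

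The members and the gene lists were chosen with earlier results of these data known. Genes named from a list were all that passed, up to 6, up to 3 further genes with the largest difference, and the TIMPs and Reck. One gene that this rule selects is not reported here. Probe sequences were not used here. Alternatives tried were 75th percentile scaling, normexp correction of median spot brightness (offset 50), no filter or a mark required on 6 arrays, averaging a gene's probes, trend and robust variance, array weights, replicate or slide row as a block, a 2-fold minimum, the methods' t-test (plain, on the same values), each array left out, and, added after seeing the data, 75th percentile scaling without TGF-β1 replicate 3.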

Additional observations from a re-analysis of the deposited data

How the results depend on the processing

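Mmp12 was not tested where the mark was required on every array. The differences of Mmp10, Mmp12 and Mmp13 kept their direction under every alternative that included them. With normexp background they were 2.98, 2.16 and 2.92, and Mmp28 had -0.09. Mmp28 had -0.03 under scaling to the 75th percentile, 0.02 with that scaling and without TGF-β1 replicate 3, and 0.11 with its second probe. Within slide row 2 the differences were 0.13 for Mmp11, 2.27 for Mmp12, -0.12 for Mmp14 and -0.10 for Mmp28. The limma calls, 292 of all genes, 3 of the members and 9 of the list genes, depended on the setting. They were 74, 2 and 1 without a filter, 507, 3 and 14 with trend and robust variance, and 4983, 5 and 54 with array weights. The methods' t-test gave 9, 0 and 0 after adjustment and 2452, 5 and 35 unadjusted. With the 2-fold minimum 198 genes were called. With 75th percentile scaling and without TGF-β1 replicate 3 the counts were 2485, 3 and 41. Higher genes made up 80.1% of the calls, 82.1% under scaling to the 75th percentile and 48.3% with array weights. When single arrays were omitted, the counts ranged from 56 to 2202 for all genes, from 2 to 5 for the members and from 0 to 40 for the list genes, with the highest without TGF-β1 replicate 3. Of the 9 list genes called, 7 passed with normexp background. With normexp background the median difference of the other MMP genes was 0.11, that of the inhibitors 0.30 and that of the AP-1 group 0.07, and under scaling to the 75th percentile that of the surface partners was 0.42. The samples share only a replicate number: the deviations of same-numbered samples correlated at -0.01, 0.33 and -0.05, and the replicate block left 104, 2 and 2 calls. Signals near background, as those of Mmp10, Mmp12 and Mmp13 in controls, limit how well a fold change can be known.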
